A study of Homo sapiens with 16 samples.

Results

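The IGF-binding proteins, IGFBP1 to IGFBP7, were followed over a time series of MCF10A cells treated with an inhibitor of the HER2 kinase. These 7 genes, of 18190 gene symbols on the array, were chosen by symbol, and each was read by 1 probe. The family was selected on earlier results of the same arrays, in which IGFBP6 was among the genes with the largest decrease between the opening 4 and the closing 4 time points. The levels of the members and every difference that uses those 8 arrays are therefore given as a description, without a p-value. For these contrasts the number of members called is only set beside the share of all probes called.

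MCF10A is a nontransformed human breast epithelial cell line. The cells were grown in Ham's F-12 medium with insulin at 5 µg/ml, epidermal growth factor (EGF) at 10 ng/ml and hydrocortisone. The inhibitor CP724,714 was added at 1 µM, and RNA was taken from parallel plates every 3 h from 0 to 45 h. Each of the 16 time points was read on a single Illumina human Ref8v2 array. The 0 h cells were untreated, and all other arrays came from treated cells of the same line in the same medium, with insulin and EGF present throughout. No time point was replicated and no series without inhibitor was analysed here, so the inhibitor, the change of medium at the start of treatment and time in culture cannot be told apart. The 16 arrays were grouped into 4 windows of 4 consecutive time points, and the spread within a window holds both array error and the change over its hours.

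The arrays were alike in brightness, with a median intensity between 210 and 254 and with 50.1% to 52.9% of the 20589 rows above background. A row was called above background on an array where its detection p, which compares its intensity with the negative control beads, was under 0.05. The epithelial markers CDH1, EPCAM, KRT8 and KRT18 were above background on all 16 arrays, as were the basal keratins KRT5 and KRT17, whereas the basal markers TP63 and KRT14 were so on 10 arrays and on 1 array. Of 5 fibroblast markers, COL1A1, COL1A2, COL3A1 and PDGFRB were never above background and DCN was on 5 arrays, and their summed intensity lay between 871 and 1031. The endothelial markers CDH5 and VWF and the blood marker CD3E were never above background, while PECAM1 was on 15 arrays, CD14 on 12 and PTPRC on 5. Of the 11 markers that passed the filter on dim probes, 5 rose and 0 fell from 0-9 h to 36-45 h (limma, adjusted p under 0.05). Of all tested probes, 16.2% were called higher and 15% lower in this contrast. From 0-9 h to 12-21 h 4 markers rose and 1 fell, against 15.1% and 14.4% of all tested probes. The marker that fell was CDH1, by 0.51 (SE 0.14, adjusted limma p 0.013). CD14 was above background on 0 of the 4 arrays of 0-9 h and on all 12 later ones, and was at least 2.73-fold higher at 36-45 h than at 0-9 h (adjusted limma p 1.3e-07). TP63 was likewise not above background at 0-9 h and was at least 2.55-fold higher at 36-45 h (adjusted limma p 6.7e-07). PECAM1 rose by 0.84 on the log2 scale (SE 0.15, adjusted limma p 3e-04), KRT17 by 0.69 (SE 0.25, adjusted limma p 0.042) and KRT18 by 0.26 (SE 0.09, adjusted limma p 0.033), and all 5 were called with median scaling and cyclic loess too. These markers moved over the same hours as the members described here, and their part in the courses of the members was not tested.

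IGF-binding proteins are secreted proteins that hold the insulin-like growth factors IGF1 and IGF2 with high affinity and thereby set how much of them reaches the type 1 IGF receptor. IGFBP3 is the main carrier of IGF in the circulation, where it forms a complex with IGF and the acid-labile subunit, and IGFBP6 prefers IGF2. The genes are under hormonal and growth factor control in many epithelia, and insulin itself is not held with high affinity by IGFBP1 to IGFBP6.

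The sequences upstream of the transcription starts of IGFBP3 and IGFBP6 are shown because these were the members with the widest range over the series. They are the 250 bases before the RefSeq start (build GRCh38.p14), written 5′ to 3′ on the strand of the gene, at chr7:45921273-45921522 on the minus strand for IGFBP3 and at chr12:53097417-53097666 on the plus strand for IGFBP6. Capitals mark every match to 7 short motifs, searched on both strands.
IGFBP3: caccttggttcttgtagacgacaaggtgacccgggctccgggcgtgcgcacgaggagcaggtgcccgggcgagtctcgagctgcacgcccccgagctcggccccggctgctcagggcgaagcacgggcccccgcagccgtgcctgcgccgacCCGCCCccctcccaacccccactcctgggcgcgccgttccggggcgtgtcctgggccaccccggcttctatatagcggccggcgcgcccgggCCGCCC
IGFBP6: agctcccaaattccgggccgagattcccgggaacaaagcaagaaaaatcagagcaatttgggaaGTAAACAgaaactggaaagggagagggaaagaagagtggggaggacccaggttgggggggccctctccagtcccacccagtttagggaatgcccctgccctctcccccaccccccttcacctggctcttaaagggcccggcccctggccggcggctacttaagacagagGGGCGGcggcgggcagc
The IGFBP3 window held 76% G and C and the motif GGGCGG, the GC box bound by Sp1 family factors, on the reverse strand at 98 and at 6 bases before the start. The IGFBP6 window held 61.2% G and C, with a GC box at 17 bases before the start and TGTTTAC, the motif of FOXO factors, on the reverse strand at 186 bases before it. Of 35116 such windows in the table, 42.6% held GGGCGG and 2.98% held TGTTTAC. Neither window held the promoter box TATAAA (in 10.7% of windows), the NF-Y motif CCAAT (32.0%), the E-box CACGTG (6.35%), the AP-1 motif TGANTCA (6.57%) or the glucocorticoid receptor motif TGTTCT (12.4%). The motifs did not overlap, and a match is a match of letters and not a measured site. An entry was found for 5 of the 7 members, and IGFBP1 and IGFBP7 had none.

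IGFBP3 and IGFBP6 were above background on all 16 arrays and IGFBP2 on 15, and these 3 members passed the filter on dim probes, which asked for at least 3 arrays. The other 4 members, IGFBP1, IGFBP4, IGFBP5 and IGFBP7, were not above background on any array. The plot of the deposited intensities of all 7 probes shows this split, with the courses of IGFBP3 and IGFBP6 descending by different routes toward the background. Arrays measure the RNA of the whole culture, so fewer cells that express a gene and less RNA per cell cannot be told apart.

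**Figure D1:**
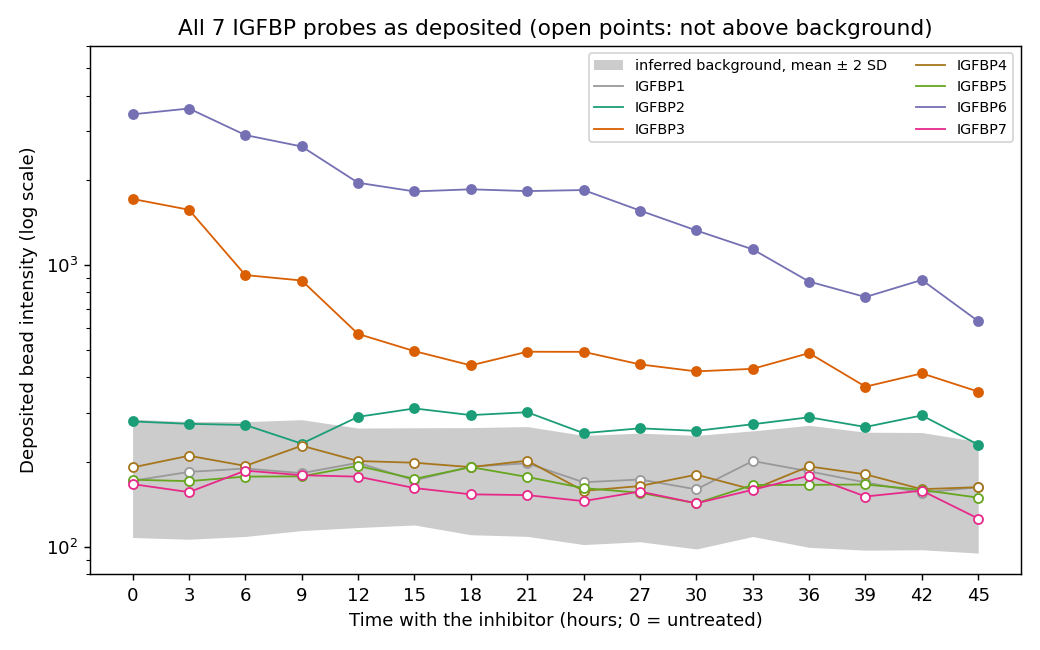
Deposited bead intensity (log scale) of the 7 IGFBP probes against time with the inhibitor in hours, 1 array per time point. Filled points were above background, open points were not, and the grey band is the inferred background mean ± 2 SD of each array. IGFBP3 ran from 1718 at 0 h to 356 at 45 h and IGFBP6 from 3431 to 633, while IGFBP1, IGFBP4, IGFBP5 and IGFBP7 stayed between 126 and 229.

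IGFBP3, which carries IGF in the circulation and in tissue fluid, had deposited intensities of 1718, 1573, 922 and 882 at 0, 3, 6 and 9 h. They were 570, 495, 441 and 493 at 12 to 21 h, 493, 444, 420 and 429 at 24 to 33 h, and 487, 370, 413 and 356 at 36 to 45 h. The arrays of 0 and 3 h stood highest, those of 6 and 9 h came next, and from 12 h on no array reached the lowest value of the first window. After background correction and quantile normalization, the log2 intensity was 10.72 at 0 h and 7.77 at its lowest, at 39 h, a range of 2.95 on the log2 scale or 7.72-fold. The deposited intensity, which still holds the background, had a range of 4.83-fold. Of the tested probes, 0.56% had a range as large on the log2 scale. Both ends of this range lie in arrays on which the family was selected, so the share is not a test.

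The decline of IGFBP3 was concentrated in 2 steps. Between 3 and 6 h the log2 intensity dropped by 1.05 and between 9 and 12 h it dropped by 0.86. Of all tested probes, 1.44% and 1.97% had a step as low in the same intervals. These 2 steps were picked as the lowest of the series, so the shares describe them and test nothing. The window means were 10.09 ± 0.66 at 0 to 9 h, 8.32 ± 0.25 at 12 to 21 h, 8.06 ± 0.19 at 24 to 33 h and 7.93 ± 0.16 at 36 to 45 h (log2, SD, n = 4 arrays each). The first window did not overlap the others, and the last 3 windows overlapped each other. The share of all tested probes with windows apart in this way was not counted. The mean of the last window was 2.16 lower than that of the first on the log2 scale (4.48-fold), and 81.7% of this difference was present by 12 to 21 h and 94.1% by 24 to 33 h.

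IGFBP6, a binding protein with a preference for IGF2, had deposited intensities of 3431, 3598, 2896 and 2638 at 0, 3, 6 and 9 h. They were 1961, 1827, 1859 and 1832 at 12 to 21 h, 1848, 1563, 1328 and 1138 at 24 to 33 h, and 875, 771, 886 and 633 at 36 to 45 h. The probe was highest at 3 h, stood between 1827 and 1961 from 12 to 24 h, and was at its lowest at 45 h. The log2 intensity ran from 11.87 at 3 h to 9.08 at 45 h, a range of 2.79 or 6.91-fold, with a range of 5.69-fold in the deposited intensity. Of the tested probes, 0.719% had a range as large. Both of these arrays are in the contrast that put IGFBP6 forward, so the small share follows from the selection and is not a test.

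For IGFBP6 the difference was spread over the series. The window means were 11.60 ± 0.26, 10.70 ± 0.10, 10.22 ± 0.33 and 9.32 ± 0.18 (log2, SD, n = 4 arrays each). The 24 h array overlapped the range of the window before it, while the first and the last window stood apart from the rest. For all tested probes such separation was not counted. The difference between the last and the first window was -2.28 on the log2 scale (4.87-fold lower), of which 39.4% was present by 12 to 21 h and 60.6% by 24 to 33 h. The largest single step, where the log2 intensity dropped by 0.53, lay between 33 and 36 h, and the next, where it dropped by 0.50, between 9 and 12 h. Of its 15 steps from one time point to the next, 11 were downward, against 10 of 15 for IGFBP3.

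**Figure D2:**
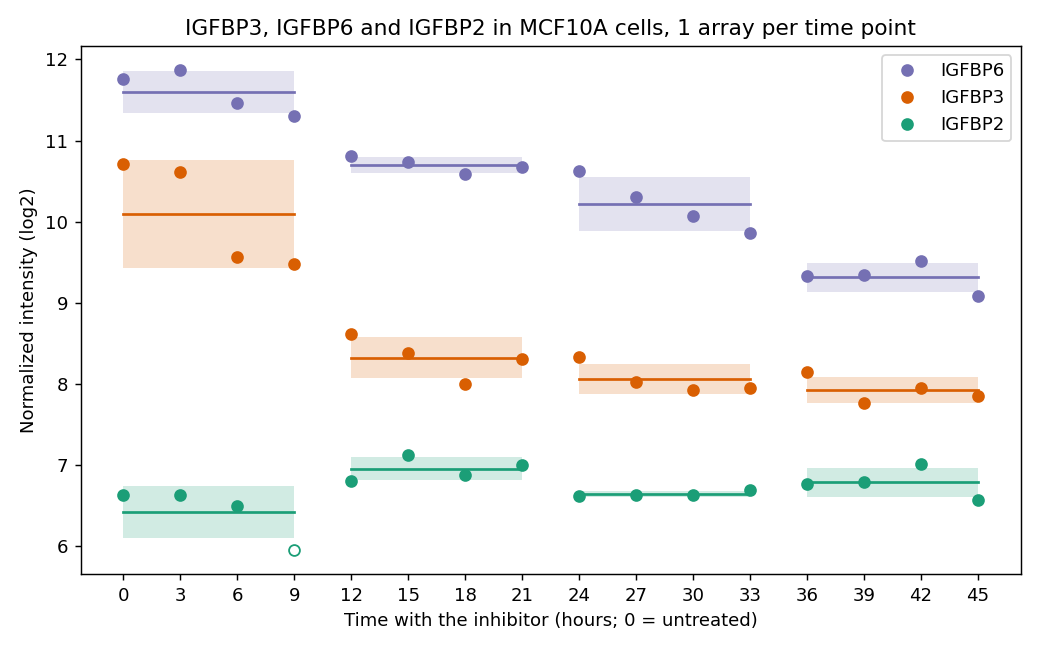
Normalized log2 intensity of IGFBP6, IGFBP3 and IGFBP2 against time with the inhibitor in hours. Points are single arrays (open: not above background), lines are the means and shaded bands the SD of 4 consecutive time points. IGFBP3 went from a mean of 10.09 to 8.32, 8.06 and 7.93, whereas IGFBP6 stepped from 11.60 to 10.70, 10.22 and 9.32.

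The 2 courses therefore separated and came together again, as the plot of their ratio over time shows. Within each array, the deposited intensity of IGFBP6 over that of IGFBP3 was 2.0 at 0 h, between 3.44 and 4.22 at 12 to 21 h, between 2.66 and 3.75 at 24 to 33 h, and between 1.78 and 2.15 at 36 to 45 h. The ratio in the last window lay below that of every array from 6 to 33 h and near that of 0 and 3 h. A ratio of 2 probes has no absolute meaning, since probes differ in how brightly they bind, and only its change over time can be read. The deposited intensities still hold the background, which draws the ratio toward 1 as the probes dim. The ratios of early and late arrays are therefore not on the same footing. On the normalized log2 scale the difference of the 2 probes was 1.51 ± 0.42, 2.38 ± 0.16, 2.16 ± 0.18 and 1.39 ± 0.21 in the 4 windows (SD, n = 4 arrays each). Over the 16 arrays the 2 probes had a Pearson r of 0.86, a description of arrays that share the same time course.

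**Figure D3:**
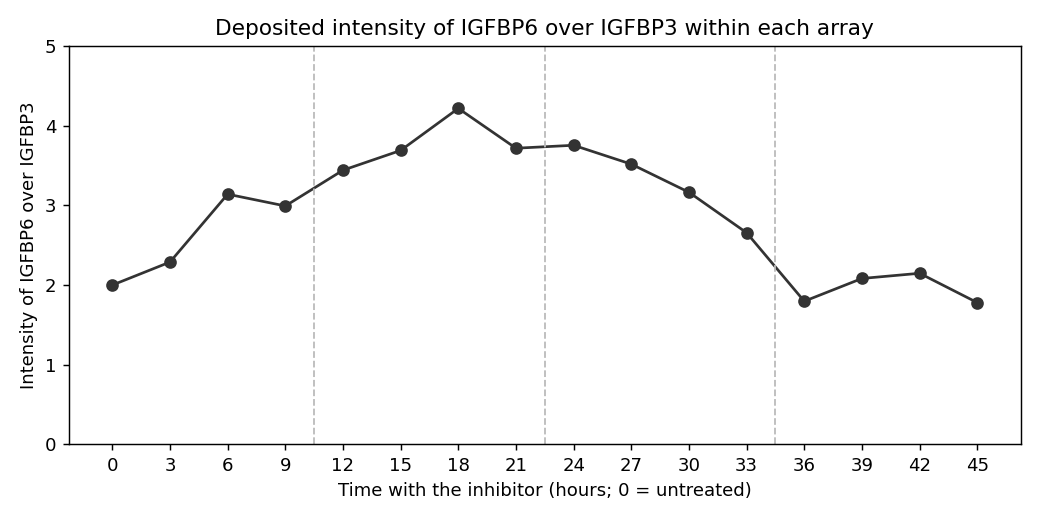
Deposited intensity of IGFBP6 divided by that of IGFBP3 within each array, against time with the inhibitor in hours, with dashed lines between the 4 windows. The ratio was 2.0 at 0 h, 4.22 at 18 h and 1.78 at 45 h. The intensities still hold the background.

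IGFBP2, another IGF carrier that also binds cell surface integrins, was dim throughout. Its deposited intensities were 279, 274, 271 and 233 at 0 to 9 h, 290, 310, 294 and 301 at 12 to 21 h, 253, 264, 258 and 273 at 24 to 33 h, and 289, 267, 293 and 231 at 36 to 45 h. The highest value lay at 15 h, and at 9 h the probe was not above background (detection p 0.0946). On the log2 scale the window means were 6.43 ± 0.32, 6.96 ± 0.14, 6.64 ± 0.04 and 6.79 ± 0.18 (SD, n = 4 arrays each). The second window lay above the first and the third without overlap, and the last window overlapped all the others. How many of all tested probes separate in this way was not counted. With the 9 h array at the level of the dimmest probe above background there, the highest value was at least 1.95-fold above the lowest. Of the tested probes, 26.7% had a log2 range as large as that of IGFBP2, so its course did not stand apart from that of other probes in size.

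The 4 members not above background on any array had the following limits. IGFBP1, a liver product whose gene is repressed by insulin and driven by FOXO factors, had intensities between 156 and 202 with detection p between 0.171 and 0.785. IGFBP4, the main substrate of the protease PAPP-A, lay between 158 and 229 (detection p 0.113 to 0.845). IGFBP5, known for its part in mammary involution, lay between 143 and 194 (detection p 0.359 to 0.907). IGFBP7, which binds IGF weakly, lay between 126 and 187 (detection p 0.506 to 0.985). The inferred background of the arrays had a mean of 166 to 199 and an SD of 35.4 to 44.0, so these members were not told apart from the negative control beads on any array. A low probe signal gives only a bound on the RNA, and a probe that binds poorly cannot be told apart from a gene that is not expressed. In the RefSeq gene order IGFBP1 is the neighbour of IGFBP3 on chromosome 7 and IGFBP5 is the neighbour of IGFBP2 on chromosome 2, and in each of these pairs 1 member was above background and the other was not.

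The contrast of 24 to 33 h with 12 to 21 h compares 8 arrays outside the contrast on which the family was selected. It was the comparison in which members were tested. Its standard errors come from a fit of all arrays of the series, so the arrays used for the selection enter them. For IGFBP3 the log2 SD was 0.66 in the first window, against 0.25 and 0.19 in the windows compared. None of the 3 tested members was called by limma at an adjusted p under 0.05. IGFBP6 was 0.48 lower on the log2 scale (SE 0.15, 95% interval of the difference by limma -0.80 to -0.17), with an unadjusted limma p of 0.00459 and an adjusted limma p of 0.686. Of all tested probes, 0.284% had a difference as low. IGFBP2 had a log2 difference of -0.31 (SE 0.14, limma interval -0.62 to -0.01, unadjusted p 0.0449, adjusted p 0.998), and IGFBP3 one of -0.27 (SE 0.23, limma interval -0.76 to 0.23, adjusted p 1). Across the array the contrast called 3 of 11957 probes, or 0.0251%, and 585 probes (4.89%) had an unadjusted p under 0.05, among them IGFBP2 and IGFBP6. The interval of IGFBP3 from the fit of all arrays allows a difference in either direction. The adjustment over all probes left none of the 3 members past the threshold. In a fit of only the 8 arrays compared, the adjusted limma p was 0.609 for IGFBP3, 0.332 for IGFBP6 and 0.476 for IGFBP2. No member was called in that fit either.

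For the other contrasts the counts of members are given beside the share of all tested probes that limma called, and nothing is read from them, since the family was chosen with these arrays in view. From the first to the last window, IGFBP3 and IGFBP6 were among the probes called lower, which were 15% of all tested probes, and no member was among the 16.2% called higher. From the first to the second window, the same 2 members were among the 14.4% called lower, with differences of -1.77 and -0.90, and IGFBP2 was among the 15.1% called higher, with a difference of 0.53. That first window holds the 9 h array, on which IGFBP2 was not above background, so the size of its difference rests in part on a value at the background. From the third to the last window, IGFBP6 was among the 18.7% called lower, with a difference of -0.90, and no member was among the 19.3% called higher. A curve of time (a natural cubic spline with 3 degrees of freedom) called 54.7% of all probes, with 2 of the 3 members among them. The balance of directions depended on how arrays were scaled. With quantile normalization, 51.8%, 51.2% and 50.8% of the calls in these 3 contrasts were higher, and with median scaling 73.1%, 73.2% and 36.9%. The difference between the last and the first window with median scaling was -1.98 for IGFBP3 and -2.13 for IGFBP6.

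The other genes of the IGF system were taken from a list of 30 genes by role, of which 29 were on the array and 20 passed the filter on dim probes. This list too was drawn up with earlier results of these data known, so its counts and p-values are not an independent test. Between the first and the last window 6 of the 20 rose and 3 fell, from the first to the second window 3 rose and 4 fell, and from the third to the last window 5 rose and 2 fell (limma, adjusted p under 0.05). None was called by limma in the middle contrast, where 4 of the 20 had an unadjusted p under 0.05, and the spline called 12 of the 20. These were 30% higher and 15% lower, 15% and 20%, and 25% and 10% of the 20 genes, against 16.2% and 15%, 15.1% and 14.4%, and 19.3% and 18.7% of all tested probes, and the spline called 60% of them against 54.7% of all. The median log2 difference of the 20 genes was -0.11, 0.00 and 0.19 in these 3 contrasts in that order, against -0.02, 0.00 and 0.00 over all probes. The plot of the changes of these genes shows their sizes.

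**Figure D4:**
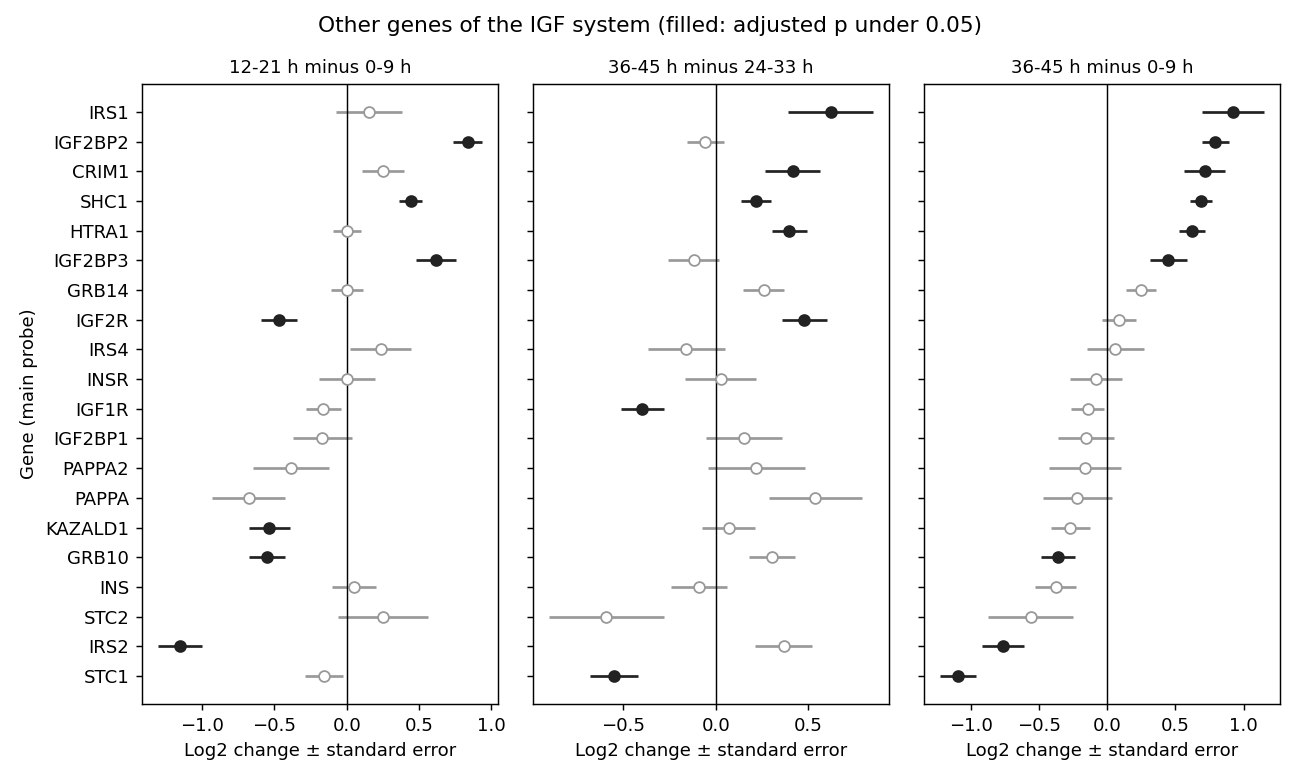
Log2 change ± standard error (limma) of the 20 tested genes of the IGF system other than the binding proteins, between windows of 4 arrays. Filled points had an adjusted p under 0.05. IRS1 was highest and STC1 lowest in the change from 0-9 h to 36-45 h (0.92 and -1.09), and IRS2 was lowest in that to 12-21 h (-1.15). KAZALD1 was not above background at 12-21 h, so its fall is a bound.

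Of the ligands that the binding proteins hold, IGF2 was not above background on any array and IGF1 was on 2 arrays, with intensities of 163 to 212 and 184 to 268. The probe for insulin, INS, was above background on all 16 arrays at 283 to 423 (log2 change from the first to the last window -0.38, adjusted limma p 0.068). Whether the signal of this single dim probe stands for insulin RNA was not tested. Among the receptors, IGF1R, through which both IGFs signal, fell by 0.40 from the third to the last window (SE 0.12, adjusted limma p 0.014). This call was lost without the 42 h array. Before that, IGF1R had a change of 0.41 from the second to the third window (adjusted limma p 0.54). From the first to the last window its change was -0.14 (adjusted limma p 0.39). IGF2R, which clears IGF2, fell by 0.47 from the first to the second window (SE 0.12, adjusted limma p 0.0079), a call lost under median scaling and in a fit of only those 8 arrays. From the third to the last window IGF2R rose by 0.48 (SE 0.12, adjusted limma p 0.0047). The insulin receptor INSR was not called (log2 change -0.08 from the first to the last window, adjusted limma p 0.78), and INSRR was above background on 1 array.

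Among the substrates and adaptors behind these receptors, IRS2 fell by 1.15 from the first to the second window (SE 0.15, adjusted limma p 4.2e-05) and was 0.76 below the first window in the last (adjusted limma p 0.001). IRS1 rose by 0.92 from the first to the last window (SE 0.23, adjusted limma p 0.0054). The adaptor SHC1 rose by 0.69 on its brighter probe (SE 0.08, adjusted limma p 6.4e-06), while its dimmer probe, above background on 8 arrays, had a change of 0.01 (adjusted limma p 0.97). From the first to the second window the brighter SHC1 probe rose by 0.44 (adjusted limma p 0.00055) and the dimmer one had a change of 0.03 (adjusted limma p 0.88). GRB10, an adaptor that dampens insulin and IGF receptor signals, fell by 0.55 from the first to the second window (SE 0.12, adjusted limma p 0.003), and a further probe for it fell by 0.72 (adjusted limma p 0.018). Its difference over the whole series was -0.36 on the main probe (adjusted limma p 0.034) and 0.25 on the other (adjusted limma p 0.4), so the 2 probes had opposite signs there. The later rises of IRS1 and SHC1, by 0.62 and 0.22 from the third to the last window, had adjusted limma p of 0.04 and 0.038, and each call was lost under median scaling and on leaving out any 1 of 6 arrays. For SHC1 that later change was 0.04 under median scaling (adjusted limma p 0.745), and its call was also lost with no filter on dim probes.

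Of the proteins that act on the binding proteins, the protease HTRA1, which cleaves IGF-binding proteins, rose by 0.62 from the first to the last window (SE 0.09, adjusted limma p 9.1e-05). STC1, an inhibitor of PAPP-A, fell by 1.09 (SE 0.13, adjusted limma p 9.1e-06). Of proteins that share the IGFBP domain, CRIM1 rose by 0.71 from the first to the last window (SE 0.15, adjusted limma p 0.0014) and KAZALD1 was at least 1.22-fold lower in the second window than in the first (adjusted limma p 0.0092). The IGF2 mRNA-binding proteins IGF2BP2 and IGF2BP3, which resemble the family in name alone, rose by 0.84 and 0.62 from the first to the second window (adjusted limma p 1.8e-05 and 0.0028). The remaining calls were the changes from the third to the last window of HTRA1 (0.40), STC1 (-0.55) and CRIM1 (0.42) and those from the first to the last of IGF2BP2 (0.79) and IGF2BP3 (0.45). Without background correction the log2 changes of several dim genes were smaller by over 1.5 times, at 0.33 for CRIM1 over the whole series, -0.17 for IGF1R from the third to the last window and -0.315 for GRB10 from the first to the second. IGFALS, the acid-labile subunit, was above background on 1 array and LRP1, a surface partner of IGFBP3, on 0 arrays.

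The genes with the most similar course were listed by Pearson r over the 16 arrays, among 3470 or 3471 genes above background on all arrays with a range of at least 1 on the log2 scale. These r are a description, since all genes share the 16 arrays and the same time axis. The course of IGFBP3 was most like those of PHLDA1 (r = 0.96), SOCS1 (0.96), a suppressor of cytokine signalling, and ACAT2 (0.95), a cytosolic thiolase that supplies sterol synthesis. From the first to the last window their log2 differences were -1.72, -1.33 and -1.35, against -2.16 for IGFBP3 itself. The course of IGFBP6 was most like those of PRKCDBP (0.98, now CAVIN3), a caveolar coat protein, DKFZp434N035 (0.96), for which no current symbol was matched, and LCN2 (0.96), a secreted siderophore-binding protein. Their log2 differences were -1.19, -0.97 and -1.69, against -2.28 for IGFBP6. An r over 0.9 was found with 33 genes for IGFBP3 and with 28 for IGFBP6. IGFBP2 had no gene with r over 0.9, and its nearest were TMEM30A (0.74), MKNK2 (0.74) and H3F3B (0.71, now H3-3B).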

How the data were processed

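Expression was measured in MCF10A cells on 16 Illumina arrays, 1 per time point. The authors deposited linear bead intensity values without normalization and a detection p-value beside each of them. The methods of the study name quantile normalization, and the summary software is not given in the sources used here. Of 20589 rows, 19092 had detection p-values in whole multiples of 1 in 708 (tolerance 0.001) and stand for 1 probe. The negative control level was inferred from these rows.

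Background was then removed from the intensities by normexp (offset 16), followed by a log2 transform and quantile normalization of the log2 values (R 4.3.3, limma 3.58.1). The offset compresses dim probes and so understates their change. Tests were run on probes above background (detection p under 0.05) on 3 or more arrays (11957 probes, 11290 symbols). Windows of 4 time points were compared with limma with an intensity trend, and a spline of time with its F-test, both on all 16 arrays, with Benjamini-Hochberg adjustment over all tested probes. Time points in a window are not replicates, and p-values measure the spread between them. No depth can be given for arrays, and their number limits the precision.

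The members and lists were chosen with earlier results of these data known. The text names all 7 members, list genes called in a contrast, list ligands and receptors, and the 3 genes nearest to each member. For genes with several probes the brightest is used. Other genes that lay outside this rule are PAPPA, STC2 and GRB14, named for single arrays, IGFALS and LRP1, which were not tested, and those given for the cell check, of which 1 marker is not reported here. Promoter sequences are from RefSeq (GRCh38.p14), and symbols were updated through its gene table. The alternatives were leaving out each array, median scaling, cyclic loess, a larger offset of 50, uncorrected background, other windows and other filters. Version 3.10.9 of matplotlib drew the figures.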

Additional observations from a re-analysis of the deposited data

Results flagged for a closer look

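Within a window of 4 arrays, an array was singled out where its gap to the nearest other array, over the window's range, was above Dixon's 95% critical value for 4 values, which chance gives in about 1 in 20 windows. This was looked for in 92 windows, 12 of them of the 3 tested members, and 8 arrays were singled out, 1 of them for a member. IGFBP2 at 33 h had a log2 intensity of 6.70, against 6.63 for the nearest of the 24 to 33 h arrays. In the list, IGF1R was 6.04 at 21 h, where it was not above background (nearest 6.36), and PAPPA, the protease that cleaves IGFBP4, was 6.91 at 45 h (nearest 6.41). STC2, an inhibitor of PAPP-A, was 11.26 in the untreated cells of 0 h against 9.29 at most at 3 to 9 h. GRB14 was 6.14 at 9 h (nearest 6.49) and 6.64 at 21 h (nearest 6.38), but it was not above background on any array of these windows, so both are gaps between values at the background. IGF2BP3 was 10.82 at 24 h (nearest 10.59) and 10.65 at 36 h (nearest 10.48).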

How the results depend on the processing

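The log2 difference between the last and the first window moved beyond the spread within windows for IGFBP3 and IGFBP6 under 2 settings. Without background correction it was -1.62 for IGFBP3 and -2.02 for IGFBP6, and with only 42 and 45 h against 0 and 3 h it was -2.76 and -2.52. Leaving out single arrays gave -2.37 to -1.96 for IGFBP3 and between -2.38 and -2.19 for IGFBP6. The sign was negative for both in every setting run. For IGFBP2 the difference was 0.36 in the main setting, 0.15 without background correction and 0.17 with only 42 and 45 h against 0 and 3 h. No member was called in the middle contrast under any setting, and the adjusted limma p of IGFBP6 lay between 0.327 and 0.811, or between 0.465 and 1 with an array left out. IGFBP2 has no value with a filter of all 16 arrays. In the IGF system list, the 7 calls from the third to the last window were 4 with median scaling and 3 to 10 with an array left out (3 without 42 h, 4 without 39 h). The cause was not tested. Without background correction, changes that were smaller by over 1.5 times, beside those given above, were IGFBP2 -0.13 and IGFBP3 -0.17 in the middle contrast, GRB10 -0.21 over the whole series, CRIM1 0.20 and STC1 -0.35 in the late contrast and KAZALD1 -0.24 in the early one. Under median scaling they were IGFBP3 -0.17 in the middle contrast, IGF2R -0.285 in the early one, GRB10 -0.19 over the whole series and HTRA1 0.21 in the late one. Of 527 recomputed values for the 23 called changes of named list genes, 488 kept their call, 39 lost it and 0 reversed. GRB10 over the whole series lost its call under median scaling, cyclic loess, no filter, a fit of the 8 arrays and without 0, 3, 6, 36 or 45 h. IGF2BP3 over the whole series lost its call in a fit of the 8 arrays and without 0, 3 or 36 h, HTRA1 in the late contrast under median scaling, and CRIM1 there with no filter and without any of 6 arrays. A chip as a block was not run, since the labels name no chip. No paired analysis was possible because each time point has 1 array. Signal over background limits IGFBP2 and the 4 members at the background.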
